A study of Glycine max with 8 samples.

Results

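These results concern chromosomes 10 and 20 of soybean (Glycine max) and the regions there that were enriched by chromatin immunoprecipitation of the protein encoded by GLYMA.08G357600. A member is a region in which a peak of the replicate 1 list and a peak of the replicate 2 list overlapped by at least 1 bp, here called a shared region. There were 1476 of them, 801 on chromosome 10 and 675 on chromosome 20, out of 15872 in the whole series, of which 14316 lay on the other 18 chromosomes and 80 on scaffolds. The choice of members used position and the presence of a peak in both lists. It set no further limit on strength, but peaks with a partner in the other list were stronger at the median than those without. The strengths and the likeness of the lists given below therefore describe regions already selected for a peak in both.

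Chromatin immunoprecipitation with sequencing (ChIP-seq) shears crosslinked chromatin, collects fragments carrying a protein with an antibody, and counts where the fragments come from. The ChIP group held 4 libraries made with an antibody raised against a peptide of the protein, and the input group held 4 libraries of total chromatin that saw no antibody. In both groups the material was crosslinked embryos of the cultivar Williams 82 at the mid-maturation stage, from greenhouse plants, as 2 biological replicates with 2 sequencing lanes each. Each ChIP replicate had 1 deposited peak list, with 21196 peaks in replicate 1 and 18385 in replicate 2, and the input entered through the background against which each peak was called. The antibody recognises a single peptide, and a control antibody or embryos without the protein were not analysed here. The labels do not say how many plants gave each replicate.

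Soybean chromosomes typically carry most of their genes toward both ends, while long middle stretches around the centromere are rich in repeats, poor in genes and rarely recombine. Soybean is also an old polyploid, and chromosomes 10 and 20 are known to share blocks of duplicated genes from that history. Mid-maturation is the stage at which the embryo fills its cells with storage protein and oil. Genes, centromeres and repeats were not placed on the maps described here, because the sources used here do not name the genome build behind the peak coordinates. For the same reason no sequence is printed.

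Each region has a fold enrichment from each list. It is the authors' value at the summit of the peak, the number of overlapping fragments (the pileup) over the local background, with 1 added to each. Replicate 1 contributed 1085 peaks on chromosome 10 and 894 on chromosome 20, and replicate 2 contributed 944 and 766. The median pileup of a shared region was 39 fragments in replicate 1 on both chromosomes, and in replicate 2 it was 31 on chromosome 10 and 29 on chromosome 20. The read totals of the libraries are not known here. Intervals cover counting error only: neighbouring regions and fragments made by PCR are not independent, regions are not replicates, and the 36 contrasts between chromosomes were not adjusted for their number.

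Most peaks of either list had a partner in the other. On chromosome 10, 809 of the 1085 replicate 1 peaks (74.6%, Wilson 95% interval 71.9% to 77.1%) and 810 of the 944 replicate 2 peaks (85.8%, 83.4% to 87.9%) lay in a shared region. On chromosome 20 the counts were 679 of 894 (76.0%, 73.0% to 78.6%) and 680 of 766 (88.8%, 86.3% to 90.8%). Over all sequences 75.2% of replicate 1 peaks and 87% of replicate 2 peaks had a partner, so both chromosomes were close to that background. A single peak of each list made up 785 regions on chromosome 10 and 667 on chromosome 20. The narrowest overlap that still joined such a pair was 78 bp on chromosome 10, from 50894581 to 50895091 (folds of 5.10 in replicate 1 and 3.84 in replicate 2), and 52 bp on chromosome 20, from 41719419 to 41720161 (3.62 and 3.74). Just outside the rule, the closest peaks that did not overlap were 100 bp apart on chromosome 10, from 45906010 to 45906645 (3.92 and 5.31), and 141 bp apart on chromosome 20, from 40255406 to 40256095 (4.21 and 4.54).

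The regions formed 2 dense ends on chromosome 10, but a single long dense stretch, toward the high-numbered end, on chromosome 20. With the length cut into 10 equal parts, chromosome 10 held, from the low-numbered end, 184, 85, 25, 5, 5, 17, 23, 111, 165 and 181 regions. The parts of chromosome 20 held 69, 24, 17, 8, 14, 21, 39, 159, 173 and 151. Both chromosomes thus thinned out through the middle and filled up again in the last 3 parts, while only chromosome 10 had more than 100 regions in its first part. Beyond the midpoint lay 62.0% of the regions of chromosome 10 and 80.4% of those of chromosome 20, a difference of -18.4 percentage points (Newcombe 95% interval -22.8 to -13.8). The pooled share on the other 18 chromosomes was 47.3%, and single chromosomes among them ran from 19.6% to 81.0%, so the lean of chromosome 20 lay within the range of the others.

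**Figure D1:**
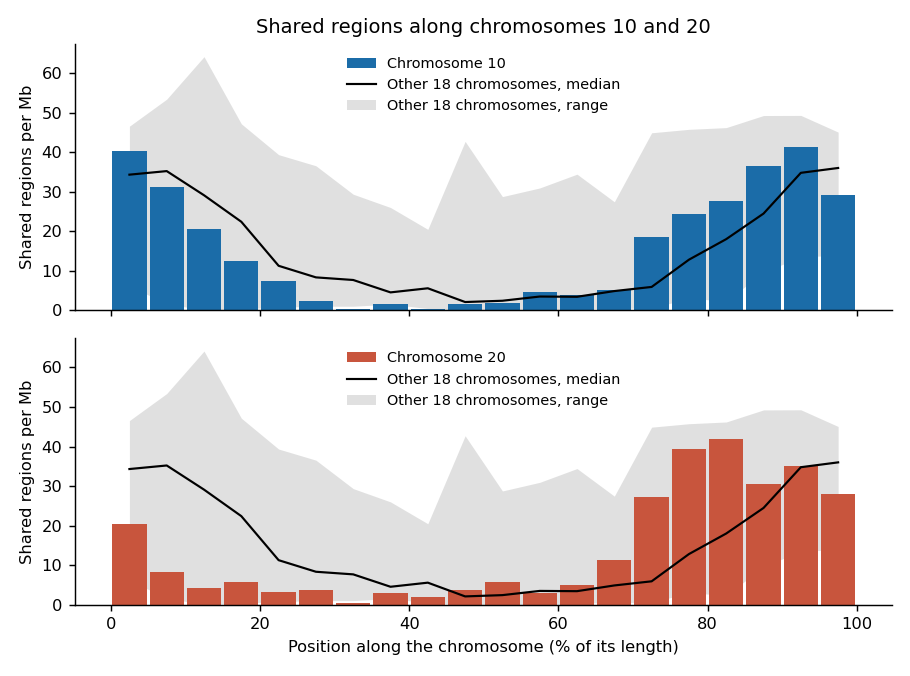
Shared regions per Mb in 20 equal slices of chromosome 10 (upper panel, bars) and chromosome 20 (lower panel, bars), against position as a percentage of the chromosome's length; the line and the grey band give the median and the range of the other 18 chromosomes. Chromosome 10 is high at both ends, whereas chromosome 20 is high toward its high-numbered end and stays under the median of the other chromosomes through its first 20%.

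Counted in Mb from the ends, the low-numbered ends differed and the high-numbered ends did not differ beyond counting error. Within 10 Mb of the low-numbered end there were 265 regions on chromosome 10 and 93 on chromosome 20, a ratio of 2.85 (exact conditional interval 2.24 to 3.65). Within 10 Mb of the high-numbered end there were 331 regions on chromosome 10 and 336 on chromosome 20, a ratio of 0.985 (0.844 to 1.15). Distances of 5 and 15 Mb gave the same picture, with ratios of 2.52 (1.90 to 3.37) and 2.67 (2.14 to 3.36) at the low-numbered ends and of 1.08 (0.867 to 1.35) and 0.917 (0.806 to 1.04) at the high-numbered ends. Each list alone held the contrast. Replicate 1 had 343 peaks on chromosome 10 and 123 on chromosome 20 in the first 10 Mb, and replicate 2 had 312 and 107. In the last 10 Mb replicate 1 had 465 and 444 peaks, and replicate 2 had 386 and 382.

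The first 10 Mb of chromosome 20 were sparse compared with most chromosome ends. The 36 ends of the other 18 chromosomes held between 21 and 458 regions within 10 Mb, with a median of 282.5, and 35 of the 36 held more than the 93 of chromosome 20. The low-numbered end of chromosome 10 was exceeded by 20 of the 36, and the high-numbered end of each chromosome by 13. The thinning on chromosome 20 set in within the first few Mb. Its first 3 Mb held 17, 24 and 15 regions and the next 3 held 6, 9 and 6, whereas on chromosome 10 the first 3 Mb held 23, 46 and 51 regions and the next 3 held 28, 31 and 17.

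**Figure D2:**
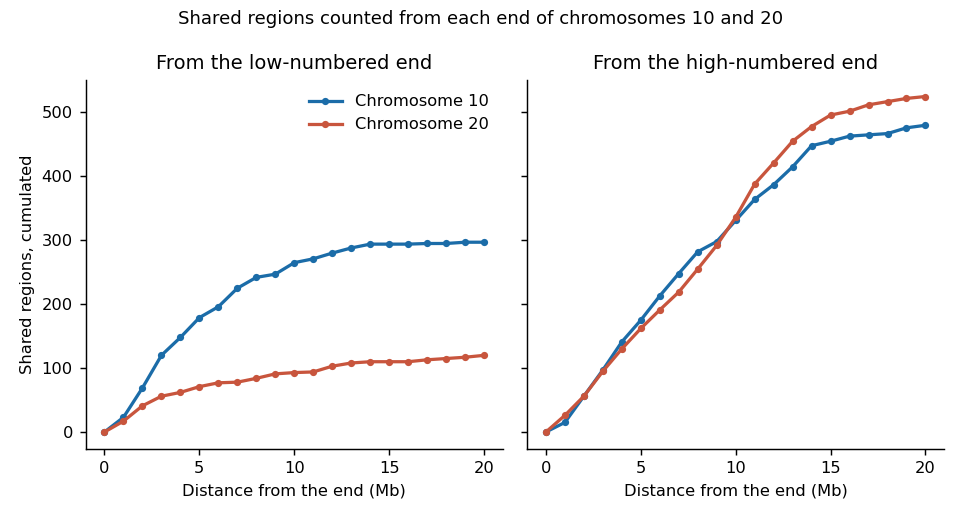
Cumulated number of shared regions against the distance in Mb from the low-numbered end (left panel) and from the high-numbered end (right panel) of chromosomes 10 and 20, in steps of 1 Mb. The lines part within the first 3 Mb of the low-numbered end and stand at 265 and 93 regions after 10 Mb, while from the high-numbered end they run close together to 331 and 336.

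The outer 20% of the length at both ends together held 615 of the 801 regions of chromosome 10, or 76.8% (Wilson 95% interval 73.7% to 79.6%), and 417 of the 675 of chromosome 20, or 61.8% (58.1% to 65.4%). The difference was 15.0 percentage points (10.3 to 19.7). Set against the other 18 chromosomes, whose pooled share was 68.1%, chromosome 10 stood 8.70 points higher (5.56 to 11.6) and chromosome 20 differed by -6.30 points (-10.1 to -2.63). Single chromosomes among the 18 ran from 33.4% to 86.9%, averaging 69.6% with an SD of 11.2 points (n = 18 chromosomes). Both chromosomes thus lay within 1 SD of the mean of the others. In rank by this share chromosome 10 was at place 5 of 20 and chromosome 20 at place 18. The outer 20% at the high-numbered end held 346 regions on chromosome 10 against 269 at its low-numbered end, 1.29 times as many. On chromosome 20 the counts were 324 and 93, a ratio of 3.48 that only 1 of the other 18 chromosomes exceeded.

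Per length, chromosomes 10 and 20 were both somewhat sparser than the pool of the others. Chromosome 10 had 15.6 shared regions per Mb (exact Poisson 95% interval 14.5 to 16.7) over 51.5 Mb, and chromosome 20 had 14.1 (13.1 to 15.2) over 47.8 Mb, where length runs to the last peak of either list. The ratio between them was 1.103 (0.994 to 1.22), whose interval includes equal density. Against the pooled 16.9 per Mb of the other 18, the ratio was 0.922 (0.858 to 0.991) for chromosome 10 and 0.836 (0.773 to 0.904) for chromosome 20. Those 18 ran from 12.8 to 25.4 per Mb, averaging 17.1 ± 3.72 (SD, n = 18 chromosomes), so both chromosomes lay within 1 SD of the mean of the others. They took places 12 and 15 of 20.

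**Figure D3:**
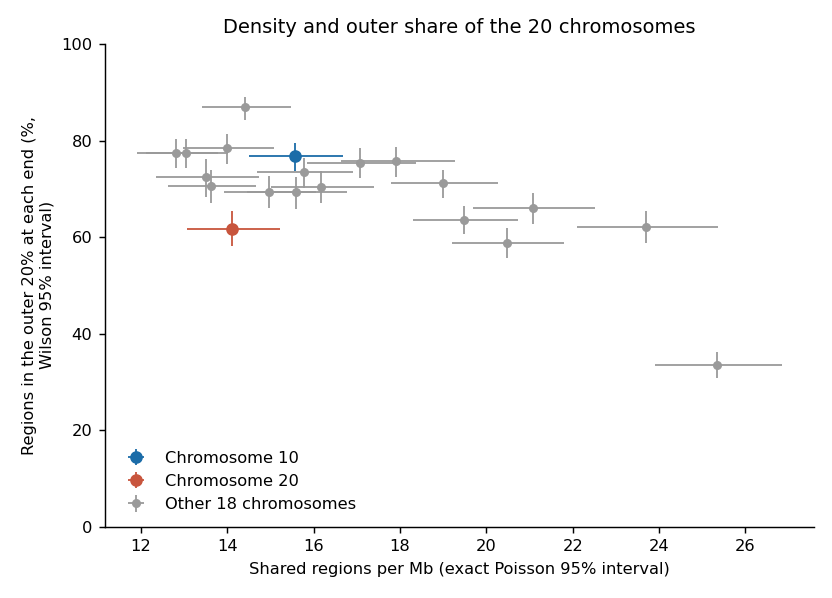
Shared regions per Mb (horizontal axis, bars are exact Poisson 95% intervals) and the percentage of regions in the outer 20% at each end (vertical axis, bars are Wilson 95% intervals) for chromosome 10, chromosome 20 and the other 18 chromosomes, 1 point each. Chromosome 10 stands at 15.6 per Mb and 76.8%, and chromosome 20 at 14.1 per Mb and 61.8%, with a lower outer share than the other chromosomes of like density.

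To describe the middle, a sparse interior was taken as the longest run of 1 Mb bins in which the average over 5 bins stayed under 10 regions. On chromosome 10 it ran from 10 to 36 Mb, covered 26 Mb and held 79 regions, 9.86% of those on the chromosome. On chromosome 20 it ran from 4 to 31 Mb, covered 27 Mb and held 103 regions, or 15.3%. At this limit the left flanks measured 10 Mb on chromosome 10 and 4 Mb on chromosome 20. The extent depended on the limit: under 5 regions per bin, the interior ran from 13 to 35 Mb on chromosome 10 (22 Mb) and from 10 to 24 Mb on chromosome 20 (14 Mb). These limits were drawn from the region counts, so the densities and spacings given by zone describe the zones and test nothing.

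Inside the sparse interior there were 3.04 regions per Mb on chromosome 10 (2.41 to 3.79) and 3.81 on chromosome 20 (3.11 to 4.63). The left flank, at the low-numbered end, held 26.5 per Mb on chromosome 10 (23.4 to 29.9) and 15.5 on chromosome 20 (11.9 to 19.9). The right flanks were nearly the same length, 15.5 Mb on chromosome 10 and 16.8 Mb on chromosome 20, and had 29.5 (26.9 to 32.4) and 30.3 (27.7 to 33.0) regions per Mb. The short left flank of chromosome 20 was thus less dense than its right flank as well as shorter than its counterpart on chromosome 10. The densest 1 Mb bins of chromosome 10 began at 2000001 with 51 regions, at 1000001 with 46 and at 47000001 with 44. Those of chromosome 20 all lay in the right flank, at 38000001 with 51 regions and at 36000001 and 37000001 with 41 each. Bins without any shared region numbered 6 on chromosome 10, more than on any other chromosome, and 3 on chromosome 20. Across the 856 bins of the other 18 chromosomes the median count was 11 and the highest 63.

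Gaps, meaning stretches with no peak in either list, split the interiors differently. Chromosome 10 had 7 gaps over 1 Mb, as many as chromosome 4 and more than the other chromosomes, which added up to 9.02 Mb or 17.5% of its length. Its longest ran from 18410222 to 20015123 (1.60 Mb), followed by those from 13791948 to 15361613 (1.57 Mb) and from 20280093 to 21657489 (1.38 Mb). Chromosome 20 had only 2 gaps over 1 Mb, together 4.94 Mb or 10.3% of its length. With peaks of either list counted, both were longer than any on chromosome 10. They ran from 13737548 to 16566742 (2.83 Mb) and from 20286263 to 22396059 (2.11 Mb), and the next, from 10241569 to 11231762, spanned 0.990 Mb. The contrast in the longest gap rested on 1 weak peak. A replicate 1 peak on chromosome 10 from 15361614 to 15361843, with a fold of 3.67 and a pileup of 17 fragments, divided what would otherwise be a gap of 2.90 Mb. Counting shared regions alone, the longest gap was thus 2.90 Mb on chromosome 10, from 13791948 to 16687024, and 2.83 Mb on chromosome 20. These took places 6 and 7 of 20. The gaps of chromosome 10 from 20280093 to 21657489 (1.38 Mb) and from 21657797 to 22719784 (1.06 Mb) had no shared region between them. By shared regions they joined into a stretch longer than the 2.11 Mb gap of chromosome 20. The number and order of the gaps thus also depended on peaks without a partner. A stretch without peaks is not a measurement of no binding, since which stretches reads could be aligned to is not known here.

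Neighbouring summits lay a median of 21.4 kb apart on chromosome 10 (95% interval of the median 18.9 to 24.6) and 25.3 kb apart on chromosome 20 (22.2 to 29.1), and those intervals overlap. The quartiles were 7.31 and 53.1 kb on chromosome 10 and 8.37 and 64.9 kb on chromosome 20. The medians of the other 18 chromosomes ran from 16.8 to 29.3 kb. Split by zone, the right flanks had median spacings of 20.8 kb on chromosome 10 (17.8 to 24.4) and 19.9 kb on chromosome 20 (16.4 to 22.8). In the left flanks the medians were 17.5 kb on chromosome 10 (13.6 to 20.8) and 43.9 kb on chromosome 20 (28.0 to 56.3), and in the interiors 98.0 kb (58.6 to 200.4) and 119.7 kb (86.3 to 194.4).

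**Figure D4:**
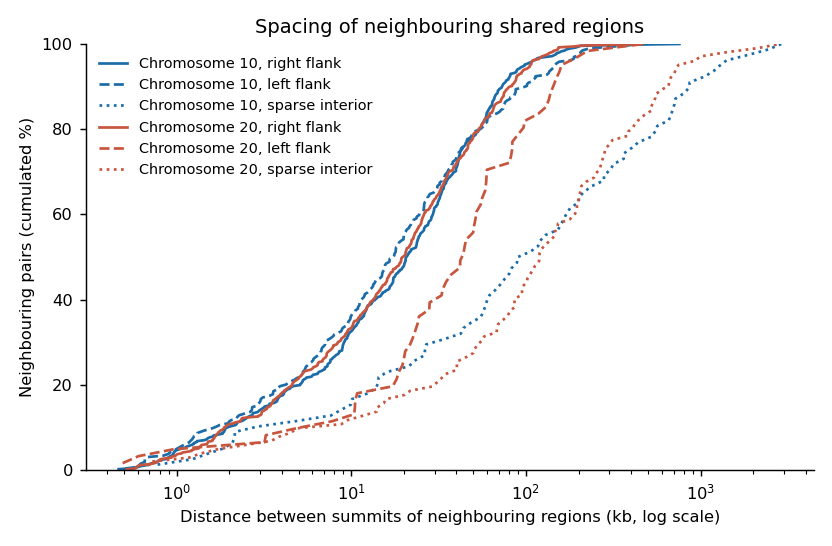
Cumulated percentage of neighbouring pairs of shared regions (vertical axis) against the distance between their summits in kb on a log scale, for the left flank, sparse interior and right flank of chromosomes 10 and 20. Both right flanks and the left flank of chromosome 10 run close together with medians of 20.8, 19.9 and 17.5 kb, the left flank of chromosome 20 lies at wider distances (43.9 kb), and both interiors at wider ones still.

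Very close neighbours were about as common as elsewhere. Summits at most 2 kb apart made up 80 of 800 neighbouring pairs on chromosome 10 (10%) and 62 of 674 on chromosome 20 (9.20%), where 9.23% of pairs in the whole series were that close. The difference between the chromosomes was 0.801 percentage points, with an interval from -2.27 to 3.80. By zone such pairs were 30 of 264 in the left flank of chromosome 10 and 3 of 61 in that of chromosome 20, 4 of 78 and 5 of 102 in the interiors, and 46 of 456 and 54 of 509 in the right flanks.

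Neither chromosome held a long chain of regions, and such chains were rare on all chromosomes. A run was counted where each summit lay within 5 kb of the next. The other 18 chromosomes held 36 runs of at least 5 regions among 14316 regions, a median of 1.5 per chromosome (0 to 5). Chromosomes 10 and 20 held 0 among 1476 regions, as did 2 of the other 18 (chromosomes 8 and 16). With so few such runs per chromosome, a count of 0 does not set either chromosome apart. Chromosome 10 had 5 runs of 4, 27 runs of 3 and 87 pairs, with 526 regions (65.7%) standing alone. The medians of the other 18 chromosomes were 5 runs of 4, 21.5 runs of 3 and 93 pairs. Chromosome 20 had 22 runs of 3 and 82 pairs, with 445 regions (65.9%) alone, and was the only chromosome of the 20 whose longest run stopped at 3. The 5 runs of 4 on chromosome 10 all lay in its right flank. They ran from 37737414 to 37742256, from 43748491 to 43759929, from 47809743 to 47813597, from 50009455 to 50014015 and from 50140816 to 50146963. Members of 1 run differed widely in strength: in the first of these the folds ranged from 5.26 to 39.6 in replicate 1 and from 4.83 to 50.9 in replicate 2. In the last run every region was weak, with folds from 3.03 to 4.48 in replicate 1 and from 4.35 to 4.82 in replicate 2. On chromosome 20 a run of 3 from 37108204 to 37113447 was strong throughout, with folds from 14.2 to 20.5 in replicate 1 and from 9.64 to 22.6 in replicate 2. These examples were chosen after their values were seen.

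Dense and sparse zones were close to one another in median strength. The median fold was 6.95 in replicate 1 and 7.21 in replicate 2 on chromosome 10, and 7.04 and 6.94 on chromosome 20. The quartiles were 5.10 and 10.7 in replicate 1 and 5.34 and 11.6 in replicate 2 on chromosome 10, and 5.30 and 10.8 and 5.38 and 11.4 on chromosome 20. The medians of the other 18 chromosomes ran from 6.73 to 7.34 in replicate 1 and from 6.95 to 7.74 in replicate 2. Chromosome 20 thus had the lowest replicate 2 median of the 20 chromosomes, but place 6 in replicate 1, so the lists did not order it alike. In the sparse interiors the medians were 7.15 and 7.35 on chromosome 10 and 6.93 and 7.03 on chromosome 20. In the left flanks they were 6.95 and 7.26 on chromosome 10 and 6.64 and 6.67 on chromosome 20. In the right flanks they were 6.93 and 7.21 on chromosome 10 and 7.12 and 7.07 on chromosome 20. Regions were fewer in the interiors, while their median fold stayed close to that of the flanks.

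A fold of at least 10 in both lists was reached by 199 regions of chromosome 10 (24.8%) and 162 of chromosome 20 (24%), against 24.4% in the whole series. A fold of at least 20 in both lists was reached by 61 regions of chromosome 10 (7.62%) and 45 of chromosome 20 (6.67%), against 7.14% in the whole series. The difference for the second limit was 0.949 percentage points (-1.75 to 3.58), and neither share stood apart from the background. By zone the regions with a fold of at least 20 numbered 17 of 265 in the left flank of chromosome 10 and 4 of 62 in that of chromosome 20. In the right flanks they numbered 36 of 457 and 37 of 510, and in the interiors 8 of 79 (10.1%, Wilson interval 5.22% to 18.7%) and 4 of 103 (3.88%, 1.52% to 9.56%). The intervals of the interiors overlap. Regions over 1000 bp wide numbered 25 on chromosome 10 (3.12%) and 12 on chromosome 20 (1.78%), against 2.41% in the whole series, and the difference of 1.34 points had an interval from -0.299 to 2.98.

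The 10 strongest regions of each chromosome, by the mean rank of the fold in both lists, lay mostly on the right flank: 9 of 10 on chromosome 10 and 9 of 10 on chromosome 20. So did most regions of any strength, as the right flank held 57.1% of all regions on chromosome 10 and 75.6% on chromosome 20. Of the regions with a fold of at least 20 in both lists it held 36 of 61 on chromosome 10 and 37 of 45 on chromosome 20. Whether the strongest regions favoured the right flank was not tested. The exceptions differed. On chromosome 10 the outlying region lay in the left flank, and on chromosome 20 it lay in the sparse interior, while the left flank of chromosome 20 held 0 of the 10.

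Read from the low-numbered end of chromosome 10, the first was the one in the left flank, from 3258740 to 3260528, with a fold of 42.2 in replicate 1 and 82.0 in replicate 2. After 35.7 Mb came the strongest region of the chromosome, from 39002970 to 39004185, with folds of 66.3 and 80.8 and pileups of 340 and 312 fragments, which ranked 3 in the whole series. Next, 345 kb further on, stood the region from 39348444 to 39349209 (folds of 48.5 and 49.3). It was followed by the region from 40797448 to 40798472, with folds of 61.9 and 75.9 and a rank of 5 in the series. A close pair came after it, from 42176371 to 42177186 (49.1 and 63.8) and, 425 kb on, from 42600950 to 42602086 (44.0 and 70.5). Pileups in that last region were 405 and 402 fragments, near the highest on the chromosome (410 in replicate 1 and 402 in replicate 2). The region from 44659312 to 44660179 was the only one of the 10 with the higher fold in replicate 1 (56.9, against 40.3 in replicate 2). The order was completed by regions from 45670856 to 45671545 (folds of 40.4 and 50.9), from 47482694 to 47484242 (folds of 41.9 and 66.5) and from 50010850 to 50011666 (folds of 48.8 and 53.4). The last of them sat inside a run of 4 regions and had 5 further shared regions within 10 kb, whereas 6 of the 10 had 0 neighbours at that distance. The median step between the 10 was 1.45 Mb.

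On chromosome 20 the order opened with the region of the sparse interior, from 26329394 to 26330228, with a fold of 38.8 in replicate 1 and 45.0 in replicate 2. Its pileups were 269 and 247 fragments, and its nearest shared region lay 102 kb away. The next, 7.43 Mb on, ran from 33762863 to 33763519 (folds of 34.0 and 43.8). The strongest region of the chromosome, from 35315097 to 35316250, had folds of 67.9 and 69.8 and pileups of 336 and 277 fragments, and ranked 6 in the series. It lay 12.52 Mb before the last peak of its chromosome, and the strongest region of chromosome 10 lay 12.47 Mb before the last peak there. That likeness was seen afterwards, and no correspondence between the positions was tested. The strongest region of chromosome 20 was followed by the region from 37337163 to 37338238, with folds of 55.2 and 47.9, and by the one from 38752967 to 38753586, with folds of 35.9 and 41.7. After a step of 4.69 Mb stood the region from 43441197 to 43442262, with folds of 62.6 and 55.2 and the highest pileups of the chromosome, 393 and 394 fragments. The last 4 of the 10 lay within 1.5 Mb of one another. They ran from 45198599 to 45199474 (38.5 and 60.6), from 45538082 to 45538888 (62.1 and 69.8, rank 7 in the series), from 45722972 to 45723811 (38.9 and 39.9) and, last, from 46614974 to 46616202 (29.9 and 72.5). A step of 185 kb, the shortest of all, was between the second and the third of these. On chromosome 20, 7 of the 10 had another shared region within 10 kb, against 4 of 10 on chromosome 10, and the median step was 1.55 Mb.

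**Figure D5:**
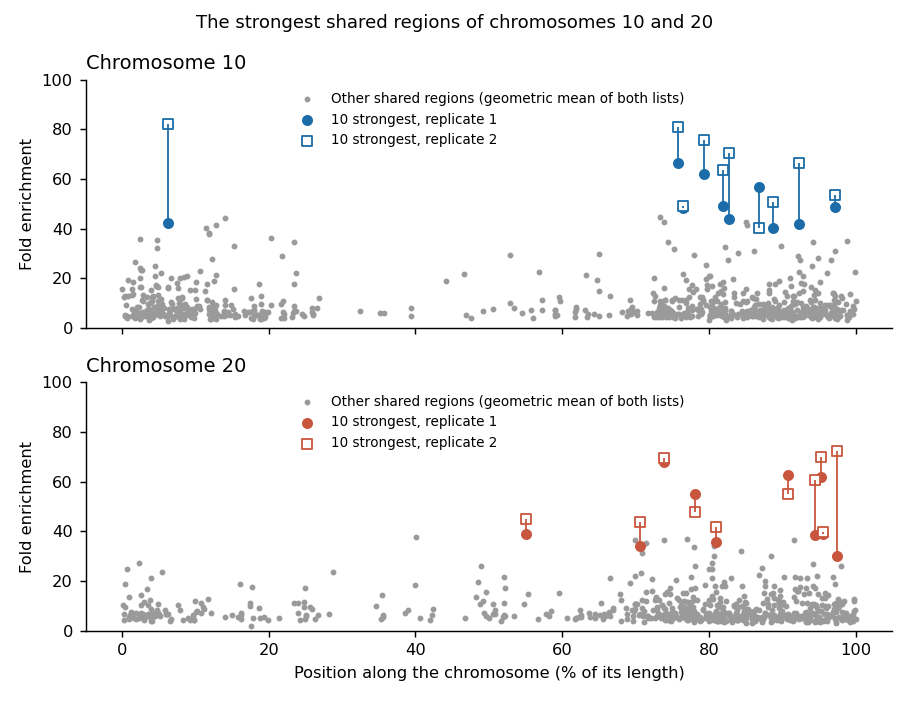
Fold enrichment (vertical axis) against position as a percentage of the chromosome's length for shared regions of chromosome 10 (upper panel) and chromosome 20 (lower panel); grey dots are the geometric mean of both lists, and the 10 strongest regions are shown by replicate 1 (filled circle) and replicate 2 (open square) joined by a line. Of the 10, 9 lie on the right flank of each chromosome, and the longest lines join folds of 42.2 and 82.0 on chromosome 10 and of 29.9 and 72.5 on chromosome 20.

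The wider set with a fold of at least 20 in both lists had distances between neighbours whose quartile ranges overlapped. The median distance between neighbours of that set was 359 kb on chromosome 10 (quartiles 162 and 703 kb) and 291 kb on chromosome 20 (154 and 843 kb). In density they stood at 1.19 per Mb on chromosome 10 and 0.941 per Mb on chromosome 20. The closest pair on chromosome 10 had summits 1.93 kb apart and together ran from 50010850 to 50014015, with folds of 48.8 and 53.4 in the first region and 33.5 and 28.5 in the second. On chromosome 20 the closest pair, 1.34 kb apart, included the strongest region of the chromosome and ran from 35315097 to 35317433, where the second region had folds of 35.4 and 37.7. The longest stretch without such a region measured 11.8 Mb on chromosome 10, from 12246900 to 24001810, and 11.1 Mb on chromosome 20, from 2638322 to 13736785. The outer 20% at both ends held 43 of the 61 on chromosome 10 (70.5%, 58.1% to 80.4%) and 26 of the 45 on chromosome 20 (57.8%, 43.3% to 71.0%), intervals that overlap.

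The interiors held 8 of these strong regions on chromosome 10 and 4 on chromosome 20. Of the 8 on chromosome 10, 4 lay between 10464288 and 12246899, near the edge of the interior, with folds from 20.2 to 35.6 in replicate 1 and from 24.6 to 36.7 in replicate 2. The other 4 were scattered. Their positions were 24001811 to 24002539 (folds of 22.8 and 20.6), 27236071 to 27236936 (26.9 and 32.0), 29284249 to 29284791 (24.1 and 21.1) and 33464115 to 33464693 (29.5 and 29.9). On chromosome 20 the interior held, besides the region among the 10 strongest, 1 at 13736786 to 13737547 (folds of 20.2 and 28.1), 1 at 19172868 to 19173520 (34.6 and 41.7) and 1 at 23396245 to 23396853 (25.3 and 27.3). The first of these directly bordered the gap of 2.83 Mb.

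At the strong regions to which replicate 2 gave a much higher fold, the backgrounds of the lists differed more than the pileups did. Among regions with a fold of at least 20 in both lists, the fold of replicate 2 divided by that of replicate 1 ranged from 0.708 to 1.94 on chromosome 10 and from 0.772 to 2.42 on chromosome 20. The same ratio of pileups ranged from 0.680 to 1.03 on chromosome 10 and from 0.607 to 1.00 on chromosome 20. A ratio over 1.5 was seen for the fold at 4 regions of chromosome 10 and 3 of chromosome 20, and for the pileup at 0 regions. The largest fold ratio on chromosome 10 was at the region in its left flank named above, with pileups of 339 and 319 fragments over backgrounds of 7.06 in replicate 1 and 2.90 in replicate 2. On chromosome 20 it was at the last of its 10 strongest, with pileups of 293 and 274 over backgrounds of 8.82 and 2.79. The lowest background in the lists was 3.91 fragments in replicate 1 and 2.74 in replicate 2, so both had a background close to the lowest in replicate 2 and well above it in replicate 1. The rank of these regions by fold rests in part on that background, whose cause was not tested.

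Across regions the replicates ranked strength alike. Spearman's rho between the lists was 0.811 on chromosome 10 and 0.817 on chromosome 20 for the fold, and 0.882 and 0.871 for the pileup, as descriptions over 801 and 675 regions that are not independent. Summits of the lists lay a median of 29 bp apart on each chromosome, and 740 regions of chromosome 10 (92.4%) and 624 of chromosome 20 (92.4%) had summits at most 100 bp apart. For those, the pileups of the replicates were compared with the median ratio over all regions by a two-sided exact binomial test. After Benjamini-Hochberg adjustment over all 14708 regions tested, 0 regions passed on either chromosome (0% in the series), and the lowest adjusted p was 1 on each (exact binomial test). Without adjustment, 20 regions of chromosome 10 (2.70%) and 23 of chromosome 20 (3.69%) had an exact binomial p under 0.05. This sets 1 list against 1 list and does not show that the pileups were equal. The test covered only regions called in both lists with close summits. Peaks found in 1 list alone, where the replicates could differ most, were left out, so it cannot tell how far the replicates differed.

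Peaks without a partner were laid out much like the shared regions. Chromosome 10 had 276 in replicate 1 and 134 in replicate 2, and chromosome 20 had 215 and 86. Their median folds were 4.28 in replicate 1 and 4.74 in replicate 2 on chromosome 10, and 4.21 and 4.79 on chromosome 20. Peaks with a partner had medians of 6.93 and 7.21 on chromosome 10, and 7.01 and 6.94 on chromosome 20. The outer 20% held 76.1% and 71.6% of the unmatched peaks on chromosome 10, against 61.4% and 64.0% on chromosome 20, in replicate 1 and replicate 2. The Wilson intervals did not overlap in replicate 1 (70.7% to 80.7% on chromosome 10 and 54.7% to 67.6% on chromosome 20) and did in replicate 2 (63.5% to 78.6% and 53.4% to 73.3%). Between 30.2% and 38.4% of unmatched peaks lay within 5 kb of a shared region. The strongest unmatched replicate 1 peaks were from 27521386 to 27521735 and from 47388796 to 47389096 on chromosome 10 (fold of 7.34 each), and from 44779442 to 44779949 (8.15) and from 36369068 to 36369396 (7.34) on chromosome 20. In replicate 2 they were from 5212819 to 5213161 (6.95) and from 41234347 to 41234682 (6.94) on chromosome 10, and from 37172800 to 37173120 (9.61) and from 43440715 to 43441034 (6.68) on chromosome 20. The last of these had its summit 0.825 kb from that of the shared region with the highest pileup of chromosome 20.

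Single regions of unlike shape close the description. The widest on chromosome 10 measured 2163 bp, from 47753591 to 47755753 (folds of 18.6 and 23.5), followed by the strong region of the left flank at 1789 bp. The widest on chromosome 20 measured 2339 bp, from 40529622 to 40531960 (10.2 and 19.2), and 2282 bp, from 38286987 to 38289268 (23.2 and 26.6). The outermost regions lay from 21712 to 22221 (15.4 and 15.8) and from 51470976 to 51471456 (10.2 and 11.8) on chromosome 10. On chromosome 20 they lay from 92348 to 92755 (9.78 and 10.7) and from 47835246 to 47835555 (4.25 and 5.37). A background over 5 times the lowest of its list in both lists was found at 0 regions of chromosome 10 and 1 of chromosome 20, against 0.208% in the whole series. That region, from 8415211 to 8415807 in the sparse interior, had pileups of 304 and 248 fragments. With backgrounds of 165 and 117 fragments its folds were only 1.83 and 2.11.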

How the data were processed

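The libraries were 4 of ChIP and 4 of input. The submitters' processing notes name Bowtie 0.12.7, an aligner, and MACS2, a peak caller, but the sources used here give no MACS2 version, no settings and no genome build. Each deposited list covers 1 biological replicate, and the labels of both its lanes name that list, read here as both lanes joined. The deposited fold enrichment is a ratio at the summit, and the deposited −log10 p behaved as that of a Poisson test, beside a deposited −log10 q. The score, the summit offset and the coordinates are likewise the authors' values, and coordinates are written counting from 1. All of these are the authors' own values per peak and were used to describe, rank and filter.

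The fold and p of a peak together fix its pileup and background, which were solved for; pileups were whole within 0.01 for 100% of peaks. Peaks of both lists overlapping by at least 1 bp were joined; the peak with the highest fold gave a region its values, and its summit lay midway between those of the lists. Intervals are Wilson (shares), exact Poisson (densities), exact conditional binomial (ratios), Newcombe (differences) and order-statistic binomial (medians), all at 95%. Pileups were tested by a two-sided exact binomial test with Benjamini-Hochberg adjustment at 0.05. Tools were Python 3.11.15, numpy 2.4.6, pandas 2.3.3 and scipy 1.17.1. The solving for pileup and background, the joining of peaks and the binomial test were tried on simulated data. The zones, gaps, runs, rankings and intervals were not.

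Regions named were, on each chromosome, the 10 strongest, the 3 longest gaps, the 3 densest bins, the 2 widest, the outermost, the 2 strongest unmatched peaks per list, runs of at least 5 and regions of high background; other examples were chosen after their values were seen. Members and lists were chosen with earlier results of these data known. Alternatives tried were other overlap rules, stricter limits, each list alone, and other widths, windows and rankings.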

Additional observations from a re-analysis of the deposited data

How the results depend on the processing

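Of 76 alternatives, 49 moved a value by no more than its error or a count by no more than 1.5 times. Another 27 moved one further, and 0 turned the direction of a value that lay beyond its error. That 0 was fixed in advance, since the only signed value, the median log2 fold given next, had intervals that include 0. The median log2 fold minus that of the other 18 chromosomes was 0.0095 and -0.0036, with intervals that include 0, and its sign changed within them in 3 alternatives: to -0.0077 on chromosome 10 without replicate 1, and on chromosome 20 to 0.0031 with the pileup in place of the fold and to 0.022 without replicate 2. All pairs of values are for chromosome 10, then 20. A fold of at least 10 in both lists left 199 and 162 shared regions, 3.87 and 3.39 per Mb and median spacings of 83.0 and 101 kb. A −log10 q of at least 10 gave 10.5 and 9.72 per Mb and spacings of 33.4 and 40.9 kb, and summits at most 100 bp apart gave 14.4 and 13.0 per Mb; these settings keep fewer regions by construction. Outer parts of 10% at each end held 45.6% and 32.6% of regions and of 25% held 87.0% and 76.9%, with chromosome 10 higher at each width. Leaving out either ChIP replicate keeps all peaks of the other list, with or without a partner, so its counts, densities, shares and spacings are of peaks and not of shared regions. There were 944 to 1085 and 766 to 894 peaks, 18.3 to 21.1 and 16.0 to 18.7 per Mb, with outer shares of 76.3% to 76.5% and 61.7% to 61.9%. Their spacings were 15.1 to 18.1 and 17.3 to 21.8 kb. Leaving out a replicate also kept 7 to 8 and 8 to 9 of the 10 strongest regions. The longest gap of chromosome 10 was 2.90 Mb without replicate 1. With a limit of 5 regions per Mb the sparse interior was 22 Mb (13 to 35 Mb) on chromosome 10 and 14 Mb (10 to 24 Mb) on chromosome 20, against 26 and 27 Mb; a lower limit takes in fewer bins by construction. Not run were a chromosome length from a reference and motif shares, which need a genome of the build. No paired analysis was possible because the lists hold ChIP peaks only and input is known only as the background at those peaks. Read totals are not known here, so what depth limits was not tested; unmatched peaks had median pileups of 19 to 23 fragments, and absence from a list is not a measured difference.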

Other observations

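Summits of the lists were displaced at a few regions. On chromosome 10 they lay 499 bp apart in the region from 43854768 to 43855577, with folds of 5.10 in replicate 1 and 4.27 in replicate 2, and 453 bp apart in the one from 49593571 to 49594432 (5.71 and 3.07). On chromosome 20 they lay 414 bp apart in the region from 41719419 to 41720161 (3.62 and 3.74), which was also the one with the narrowest overlap. A stronger region of chromosome 20, from 212605 to 213439 near its low-numbered end, had folds of 15.6 and 22.4 and summits 337 bp apart.

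The background sat at the lowest level of its list for 28.7% of the shared regions of chromosome 10 in replicate 1 and 26.6% in replicate 2. On chromosome 20 the shares were 30.7% and 30.8%, and on the other 18 chromosomes 26.3% and 27.0%.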
